A study of Mus musculus with 6 samples.

Results

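The genes described here make cholesterol and fatty acids. They comprise 5 genes that sense and control sterol supply, 18 genes of sterol synthesis, the sterol carrier gene Stard4 and 10 genes that make, elongate or desaturate fatty acids. They were taken by symbol from a list of 34 genes, and 33 of them matched a row among the 16344 genes of the deposited table. Fdps, the farnesyl diphosphate synthase gene, is not analysed here. RNA came from 6 mouse tumours grown from the 60577 cell line, a transplantable model of high-grade serous ovarian cancer, in the abdominal cavity of syngeneic mice. Tumours had 21 days to establish before 3 weekly cycles of carboplatin, which the labels give for both groups, so no group is without chemotherapy. The AZD7507 group (n = 3) then received AZD7507, an inhibitor of the CSF1R receptor on which macrophages depend, by daily oral gavage for 84 days. The control group (n = 3) is labelled vehicle, and its schedule is not described separately. All tumours were taken at humane endpoint, and the day of each collection is not given in the sources used here. No genotype of the line and no strain, sex or age of the mice is given, and the model rests on 1 cell line. The labels do not say that each tumour came from a different mouse, so the p-values speak for the variation among the tumours sampled, which may be in part technical.

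Cholesterol is built from acetyl-CoA through mevalonate, isoprenoid units, squalene and lanosterol, and fatty acids are built from the same precursor by carboxylation, repeated condensation, elongation and desaturation. The transcription factors SREBP-1 and SREBP-2, made by Srebf1 and Srebf2, switch on these genes when membrane sterol is low. SCAP escorts them out of the endoplasmic reticulum and the INSIG proteins hold them back. SREBP-2 acts mainly on the sterol genes and SREBP-1 mainly on the fatty acid genes. Both bind sterol regulatory elements together with the partner factors NF-Y, which recognises CCAAT boxes, and Sp1, which recognises GC-rich boxes. Tumour cells use both routes for membrane growth, and macrophages handle much cholesterol by uptake and export.

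Promoter sequences of the listed genes were searched for short motifs. RefSeq promoter windows on GRCm38.p6, from 250 bases before to 50 bases after each start, were found for 27 of the 34 listed genes. Those without an entry were Fdps, Fdft1, Sqle, Stard4, Scd1, Scd2 and Fads1. The letters CCAAT, on either strand, occurred in the windows of 14 of 15 sterol genes, or 93.3%. The exception was Acat2. The fatty acid genes held it in 4 of 7 and the regulators in 4 of 5, while the share was 42.4% over the 10781 genes of the table with a window and 37.4% over all 32851 windows. A strict sterol regulatory element core, TCACNCCAC on either strand, was in the window of Hmgcs1 only, 137 bases before its start, against 1.4% of genes of the table with a window. The Sp1 box GGGCGG, on either strand, was in 14 of 15 sterol genes, 5 of 5 regulators and 3 of 7 fatty acid genes, against 67.7% of those genes. No matches of different motifs overlapped in the members' windows, and genes with several starts had several windows, each searched. A match describes letters and not a bound site, and these shares were not tested.

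The 200 bases before the start are printed for 5 genes, 5′ to 3′ on the gene's strand. Hmgcs1 is shown as the gene with the strict element, Mvk for its 5 CCAAT boxes, Idi1 and Msmo1 as other sterol genes with several boxes, and Fasn as a fatty acid gene for comparison. Capitals mark CCAAT, its reverse complement ATTGG and the sterol regulatory element core. In Fasn, 2 of the 3 matches overlap on opposite strands. Positions are chr13:119690151-119690350 on the plus strand for Hmgcs1, chr5:114444069-114444268 on the plus strand for Mvk, chr13:8885406-8885605 on the plus strand for Idi1, chr8:64733579-64733778 on the minus strand for Msmo1 and chr11:120824548-120824747 on the minus strand for Fasn.
Hmgcs1: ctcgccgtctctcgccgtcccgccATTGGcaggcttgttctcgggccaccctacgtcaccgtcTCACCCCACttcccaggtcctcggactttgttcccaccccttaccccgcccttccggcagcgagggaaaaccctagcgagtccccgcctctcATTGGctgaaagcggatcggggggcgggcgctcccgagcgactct
Mvk: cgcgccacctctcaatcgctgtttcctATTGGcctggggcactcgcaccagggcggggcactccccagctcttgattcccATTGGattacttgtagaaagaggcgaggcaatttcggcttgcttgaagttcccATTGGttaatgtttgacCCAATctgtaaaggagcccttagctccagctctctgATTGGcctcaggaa
Idi1: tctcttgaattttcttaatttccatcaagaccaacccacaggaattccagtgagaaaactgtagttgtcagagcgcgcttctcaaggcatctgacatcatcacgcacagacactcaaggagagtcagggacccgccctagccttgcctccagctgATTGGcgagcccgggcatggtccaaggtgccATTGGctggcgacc
Msmo1: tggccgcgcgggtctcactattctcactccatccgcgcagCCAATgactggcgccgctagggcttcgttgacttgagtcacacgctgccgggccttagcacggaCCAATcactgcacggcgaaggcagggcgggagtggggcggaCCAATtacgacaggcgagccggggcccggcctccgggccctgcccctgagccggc
Fasn: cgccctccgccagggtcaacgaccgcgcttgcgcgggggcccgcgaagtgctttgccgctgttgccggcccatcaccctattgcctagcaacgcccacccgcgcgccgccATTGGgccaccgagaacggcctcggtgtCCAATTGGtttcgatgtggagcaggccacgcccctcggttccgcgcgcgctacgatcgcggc

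The deposited values are log2 RPKM, that is read density per length of gene and size of library, after cqn normalization by the authors. Their depth is unknown. Of the serous ovarian markers, Wt1 lay between 6.13 and 6.72 and Krt18 between 6.89 and 7.47 in the 6 libraries, whereas Pax8 lay between -3.89 and -2.09. Macrophage markers were lower with AZD7507 in 12 of 12 genes, of which 6 passed the test described below, with a summed RPKM of 442 to 718 in the vehicle libraries and 92.8 to 220 in the AZD7507 libraries. Csf1r, which encodes the drug's target, fell by 2.62 (SE 0.32) and C1qb by 2.37, while Lyz2 differed by -1.66. Pancreatic acinar genes (8 of 10 measured) summed to 4440 RPKM in Vehicle 2 and 4866 in AZD7507 2, but to between 2.31 and 10.2 in the other 4 libraries, with Ctrb1 at 9.55 and 9.87 and Cela1 at 8.72 and 8.94 in those 2 libraries. Values without these acinar-rich libraries are given beside some of the members that were extreme in them. None of 8 hepatocyte markers had a row, and of 10 adipocyte markers 6 had one, without Adipoq, Lep, Cidec and Retn.

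No lipid synthesis gene passed the test between the groups. In a limma fit over all 16344 genes with Benjamini-Hochberg adjustment, 0 of 33 members had an adjusted p under 0.05, and the smallest was 0.481, for Fdft1. The background was 0.355% of all genes called in either direction, 0.0184% of them higher and 0.337% lower. At an unadjusted p under 0.05 there was 1 higher member, Fdft1, and 0 lower, where 3.31% of all genes were higher and 5.49% lower, 8.8% together. The differences were small: 32 of 33 lay within 0.5 of zero on the log2 scale, Acss2 being the exception. For 30 of 33 members the 95% interval of the difference excluded a change of 1 log2 unit in either direction, and the 3 members for which it did not were Scd1, Elovl6 and Acss2. The median difference over the members was 0.15, beside 0.03 over all genes, with 23 members above zero and 10 below. Over all genes 54.5% were above zero. Leaving out 1 library at a time moved the difference by more than 1.5 times for 31 of 33 members, all but Fdft1 and Acat2, and changed its sign for 12.

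**Figure D1:**
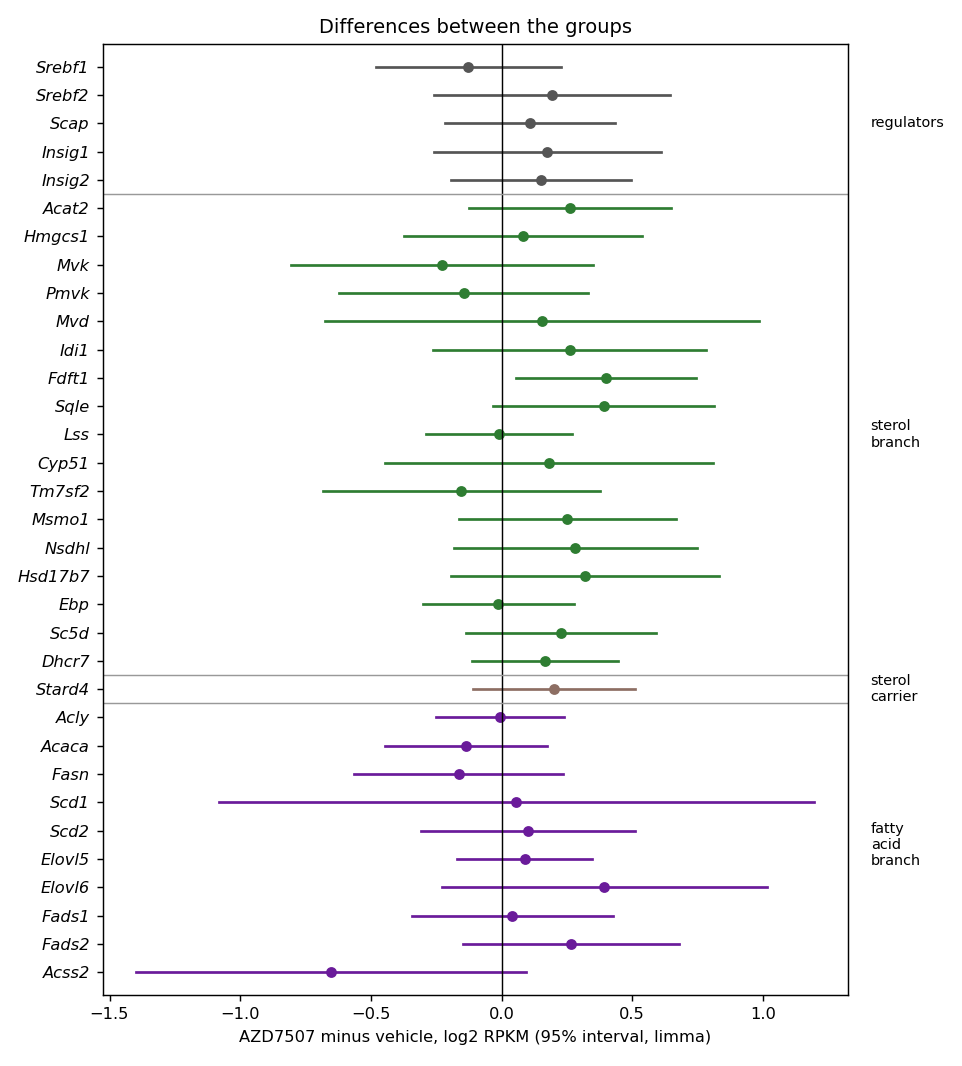
AZD7507 minus vehicle for the 33 measured genes, in log2 RPKM on the horizontal axis, with points for the difference and lines for the 95% interval from limma (n = 3 per group). Nearly all points lie within 0.5 of zero, the interval of Fdft1 alone excludes zero, and those of Scd1, Mvd and Acss2 are wide.

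Levels differed far more between genes than between groups. On the log2 RPKM scale, which is per length, Scd2, a stearoyl-CoA desaturase gene, had the highest mean over the 6 libraries at 7.59. It was followed by Fads1 at 5.77, Fasn at 5.09, Scd1 at 4.91, Srebf2 at 4.67, Fads2 at 4.59 and Acly at 4.27. The highest sterol genes were Hmgcs1 at 3.77 and Ebp at 3.69. The lowest members were Mvd at -0.25, Mvk at -0.05 and Acss2 at 0.08, levels near 1 RPKM that may rest on few reads. Scd2 alone supplied between 45.1% and 55.0% of the summed RPKM of the fatty acid branch in each library.

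**Figure D2:**
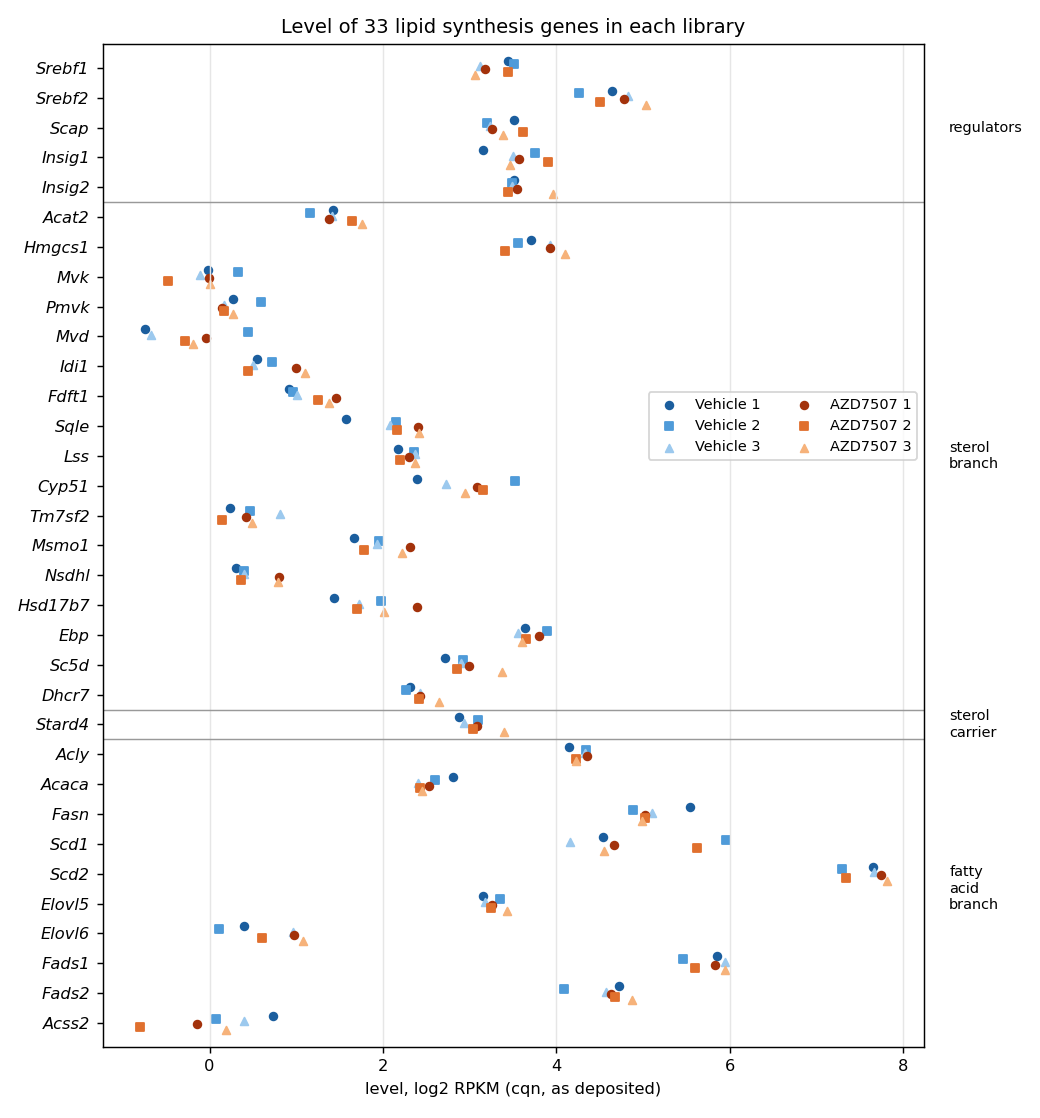
Level of each measured gene in log2 RPKM (horizontal axis) in the 3 vehicle (blue) and 3 AZD7507 (orange) libraries, grouped by role. Scd2 lies furthest right with a mean of 7.59, Mvd and Mvk lie near 0, and blue and orange points are interleaved for most genes.

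Among the regulators, 0 of 5 passed the test and their differences ran from -0.13 to 0.19. Srebf2, the sterol-branch factor, was at 4.65, 4.26 and 4.83 in the vehicle libraries and 4.78, 4.50 and 5.04 in the AZD7507 libraries. The groups overlapped, and the lowest value of each group was in its acinar-rich library. The Srebf2 means were 4.58 ± 0.29 (SD, n = 3) and 4.77 ± 0.27, which differ by 0.19 (SE 0.19). The difference was 0.03 without Vehicle 2, 0.33 without AZD7507 2 and 0.17 without both. Srebf1 was at 3.44, 3.51 and 3.12 with vehicle and 3.17, 3.44 and 3.07 with AZD7507, again overlapping, and differed by -0.13 (SE 0.15), or by -0.16 without both acinar-rich libraries. The table gives 1 value for this gene, so its SREBP-1a and SREBP-1c transcripts cannot be told apart. Insig1, which is itself an SREBP target and a brake on the factors, was at 3.15, 3.75 and 3.49 with vehicle and 3.56, 3.90 and 3.46 with AZD7507. Its lowest value was in Vehicle 1 and its 2 highest in the acinar-rich libraries. Insig1 differed by 0.18 (SE 0.19), by 0.02 without Vehicle 1, by 0.32 without Vehicle 2 and by 0.19 without both acinar-rich libraries. Insig2, the second brake, was almost level in the vehicle group, at 3.50 ± 0.02, and its difference of 0.15 came from AZD7507 3, at 3.96. Without AZD7507 3 that difference was -0.0042. The escort gene Scap differed by 0.11 (SE 0.14), and by -0.05 without both acinar-rich libraries.

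In the sterol branch 0 of 17 measured enzymes passed, 12 were above zero and 5 below, and the median difference was 0.18. Groups did not overlap for 2 of them, both higher with AZD7507. The background was 7.34% of all genes with separate, higher AZD7507 values. These 2 genes act in neighbouring steps. Fdft1, which joins isoprenoid units into squalene, was at 0.92, 0.96 and 1.01 with vehicle and 1.46, 1.25 and 1.38 with AZD7507. Every AZD7507 library thus exceeded every vehicle library. Fdft1 was at 0.96 ± 0.04 and 1.36 ± 0.11, a difference of 0.40 (SE 0.15, 95% interval 0.06 to 0.74), or 1.32-fold, with an adjusted p of 0.481 from limma. Sqle, which epoxidises squalene, was at 1.58, 2.15 and 2.08 with vehicle and 2.40, 2.16 and 2.42 with AZD7507. The groups touched closely, at 2.15 in Vehicle 2 and 2.16 in AZD7507 2, and Vehicle 1 was far below the others. Sqle differed by 0.39 (SE 0.18, 95% interval -0.03 to 0.81), or 1.31-fold, with an adjusted p of 0.606 from limma. Without Vehicle 1 the Sqle difference was 0.21, so that library moved the value by more than 1.5 times.

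Fdft1 lies on chromosome 14 of GRCm38, and 18.3% of its exonic bases in GENCODE M21 overlap exons of Ctsb on the opposite strand. The strand setting of the counting is not given in the sources used here, so reads of the 2 genes may not be separable there. Ctsb, a lysosomal protease gene chosen here after its values were seen, was far more abundant, between 6.66 and 7.08 in the 6 libraries. Its difference of -0.18 was opposite in sign to that of Fdft1, and whether shared reads bear on Fdft1 was not tested. Part of the exons of Tm7sf2 (12.1%, with Vps51 on the same strand) and of Cyp51 (3.76%, with Akap9 on the opposite strand) is shared with another gene, as is part of those of Acss2 (3.89% with Gss and 1.94% with Ggt7, both on the opposite strand) and of Srebf1 (1.93%, with Rai1 on the opposite strand). Scap (13.2%), Hmgcs1 (12.1%), Idi1 (9.22%) and Acss2 (3.30%) overlap antisense or unclassified transcripts on the opposite strand. Scd1 and Scd2 belong to a family of similar desaturase genes, and Acat2 and Idi1 have close relatives, so reads may have been split between copies.

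Of the mevalonate steps, Acat2, which condenses acetyl-CoA in the cytosol, differed by 0.26 (SE 0.16). Hmgcs1, which makes HMG-CoA, was at 3.71, 3.56 and 3.92 with vehicle and 3.93, 3.41 and 4.10 with AZD7507, so the groups overlapped and each group's lowest value was in its acinar-rich library. It differed by 0.08 (SE 0.19), and by 0.20 without those 2 libraries. The kinase genes Mvk and Pmvk differed by -0.23 and -0.15, and both were at low levels. Without both acinar-rich libraries Mvk differed by 0.06 and Pmvk by -0.01. Mvd, the decarboxylase gene, was at -0.75, 0.45 and -0.68 with vehicle and -0.04, -0.29 and -0.19 with AZD7507. Vehicle 2 was highest and the other vehicle libraries lowest, so the vehicle SD of 0.67 exceeded the difference of 0.15. The Mvd difference was -0.06 without Vehicle 1 and 0.60 without both acinar-rich libraries. Idi1, the isomerase that supplies the reactive isoprenoid unit, was at 0.59 ± 0.11 and 0.85 ± 0.35 and differed by 0.26 (SE 0.22), with its lowest value of all, 0.45, in AZD7507 2. The Idi1 difference was 0.46 without AZD7507 2 and 0.13 without AZD7507 3.

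After squalene, Lss, which closes the ring to lanosterol, differed by -0.01 (SE 0.12, 95% interval -0.29 to 0.27) and Ebp, the sterol isomerase gene, by -0.01 (SE 0.12, 95% interval -0.30 to 0.28). These 2 intervals are among the narrowest of the branch. Hsd17b7, a ketoreductase of C4 demethylation, was at 1.44, 1.98 and 1.73 with vehicle and 2.39, 1.70 and 2.01 with AZD7507, and the groups overlapped. It differed by 0.32 (SE 0.22), by 0.14 without AZD7507 1 and by 0.49 without AZD7507 2. The other C4 demethylation genes, Msmo1 and Nsdhl, differed by 0.25 (SE 0.18) and 0.28 (SE 0.20). Cyp51, the lanosterol demethylase gene, was at 2.39, 3.52 and 2.73 with vehicle and 3.09, 3.15 and 2.95 with AZD7507. The vehicle libraries held both its lowest and its highest value. The Cyp51 difference of 0.18 (SE 0.27) turned to -0.06 without Vehicle 1 and grew to 0.50 without Vehicle 2, and it was 0.46 without both acinar-rich libraries. Of the late steps, the desaturase gene Sc5d differed by 0.23 and the reductase gene Dhcr7 by 0.17. Another reductase gene, Tm7sf2, differed by -0.15. Stard4, which carries cholesterol between membranes, differed by 0.20 (SE 0.13).

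Many sterol genes were high or low in the same tumours, and 1 AZD7507 tumour did not share the direction of the other 2. In AZD7507 3, 15 of 17 sterol genes were above their own mean over the 6 libraries, and in AZD7507 1, 14 of 17 were, against 54.0% and 53.3% of all genes in those libraries. In Vehicle 1 only 2 of 17 were above their mean, against 51.5% of all genes, and 9 of 17 had their lowest value there, against 17.5% of all genes. In AZD7507 2 the count was 5 of 17, close to the 4 in Vehicle 3 and below the 9 in Vehicle 2. Proliferation markers had median levels of 4.66, 4.88 and 4.71 in the vehicle libraries and 4.82, 5.05 and 5.26 in the AZD7507 libraries. The median of the serous epithelial markers was 4.59, 3.99 and 4.89 with vehicle and 4.97, 4.64 and 5.34 with AZD7507. Pcna, a replication clamp gene, and Krt18, an epithelial keratin gene, had separate groups and differed by 0.38 and 0.41. Mki67 differed by -0.07 and Wt1 by 0.11, both with overlap. Groups were separate and higher for 1 of 10 proliferation and 2 of 10 epithelial markers, against 7.34% of all genes. By its median, each of the 2 marker lists was thus highest in AZD7507 3. The summed RPKM of the proliferation list was highest in AZD7507 2, at 306, beside 303 in AZD7507 3. The part of these lists in the sterol values was not tested.

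**Figure D3:**
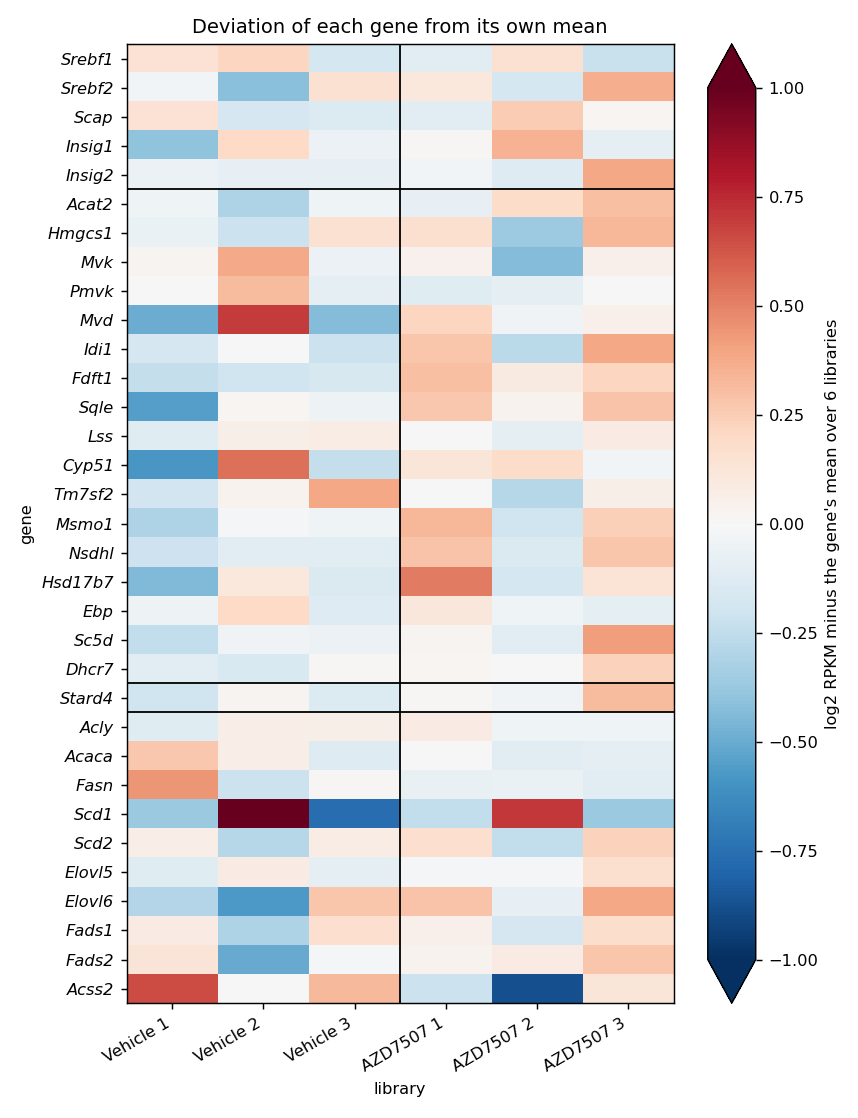
Each gene's log2 RPKM minus its mean over the 6 libraries, coloured from -1 (blue) to 1 (red) with larger values at the end colours, with 1 row per gene and 1 column per library and lines between roles and groups. In the sterol block Vehicle 1 is mostly blue (2 of 17 genes above their mean) and AZD7507 1 and AZD7507 3 mostly red (14 and 15 of 17), while Scd1 stands out in Vehicle 2 and AZD7507 2.

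With both acinar-rich libraries left out, which leaves 2 tumours per group, 15 of 17 sterol genes were above zero, against 53.6% of all genes, and the branch median difference was 0.38. Of the vehicle libraries, Vehicle 2 had the most sterol genes above their own mean, 9 of 17, against 48.2% of all genes. Of the AZD7507 libraries, AZD7507 2 had the fewest, 5 of 17, against 48.0% of all genes. Leaving both out was therefore bound to widen the sterol difference, so the counts that follow are no independent support for it. At an unadjusted p under 0.05 there were 7 higher sterol genes, namely Mvd, Idi1, Fdft1, Sqle, Cyp51, Msmo1 and Hsd17b7, and 0 lower. Stard4 was also higher at that level. The background in the same libraries was 7.59% of all genes higher and 8.77% lower. Groups were separate and higher for 12 of 17 sterol and 4 of 10 fatty acid genes, and separate and lower for 0 and 2, against 26.6% and 23.6% of all genes. No member passed after adjustment in these 4 libraries, where 0.0857% of all genes did, and 0 of the 10 fatty acid genes had an unadjusted p under 0.05 in either direction. Leaving out Vehicle 1 alone had the opposite effect, with 10 of 17 sterol genes above zero. The branch median difference stayed positive in each fit without 1 library, between 0.13 and 0.27.

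In the fatty acid branch 0 of 10 genes passed, 6 were above zero and 4 below, and the median difference was 0.05. No member had separate groups, against 15.4% of all genes in either direction. Of the genes that supply cytosolic acetyl-CoA, Acly, which cleaves citrate, had group means of 4.27 ± 0.11 and 4.27 ± 0.07 and a difference of -0.0046 (SE 0.10, 95% interval -0.25 to 0.24). Acss2, which makes acetyl-CoA from acetate, was at 0.73, 0.08 and 0.40 with vehicle and -0.14, -0.80 and 0.19 with AZD7507. The groups overlapped only between Vehicle 2 and AZD7507 3. Acss2 had the largest difference of all members, -0.65 (SE 0.32, 95% interval -1.40 to 0.09), or 1.57-fold lower, and did not pass (limma adjusted p 0.623). Its level was near 1 RPKM, and with 1 added to the RPKM the difference was -0.33. Without AZD7507 2 the difference was -0.38.

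The rate-limiting carboxylase gene Acaca and the synthase gene Fasn differed by -0.14 (SE 0.13) and -0.16 (SE 0.17). Fasn was at 5.54, 4.88 and 5.11 with vehicle and 5.02, 5.02 and 4.99 with AZD7507, so the AZD7507 tumours were almost equal and the vehicle tumours lay on both sides of them. Without Vehicle 1, its highest library, the Fasn difference was 0.02. Of the elongases, Elovl6, which extends palmitate, was at 0.39, 0.11 and 0.96 with vehicle and 0.97, 0.60 and 1.07 with AZD7507. The groups overlapped through Vehicle 3, and the difference was 0.39 (SE 0.27), or 0.63 without Vehicle 3 and 0.21 without Vehicle 2. Elovl5, which extends polyunsaturated fatty acids, differed by 0.09 (SE 0.11).

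Of the desaturase genes, Scd2 was at 7.65, 7.30 and 7.66 with vehicle and 7.75, 7.34 and 7.81 with AZD7507, so its 2 lowest values were in the acinar-rich libraries, and it differed by 0.10 (SE 0.18), or by 0.13 without them. Its close relative Scd1 ran the other way, at 4.54, 5.96 and 4.16 with vehicle and 4.67, 5.62 and 4.54 with AZD7507. The 2 acinar-rich libraries were the highest, and the vehicle SD of 0.95 was far above the difference of 0.06 (SE 0.49). The gap between Scd1 and Scd2 was -1.34 in Vehicle 2 and -1.72 in AZD7507 2, but between -3.50 and -3.08 in the other 4 libraries. Without both acinar-rich libraries the Scd1 difference was 0.26. Fads2 was at 4.72, 4.09 and 4.58 with vehicle and 4.63, 4.68 and 4.87 with AZD7507, lowest in Vehicle 2, and differed by 0.26 (SE 0.18). The Fads2 difference was 0.08 without Vehicle 2 and 0.10 without both acinar-rich libraries. Fads1, which acts after Fads2 in making long polyunsaturated fatty acids, differed by 0.04 (SE 0.16), and by -0.01 without both acinar-rich libraries.

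**Figure D4:**
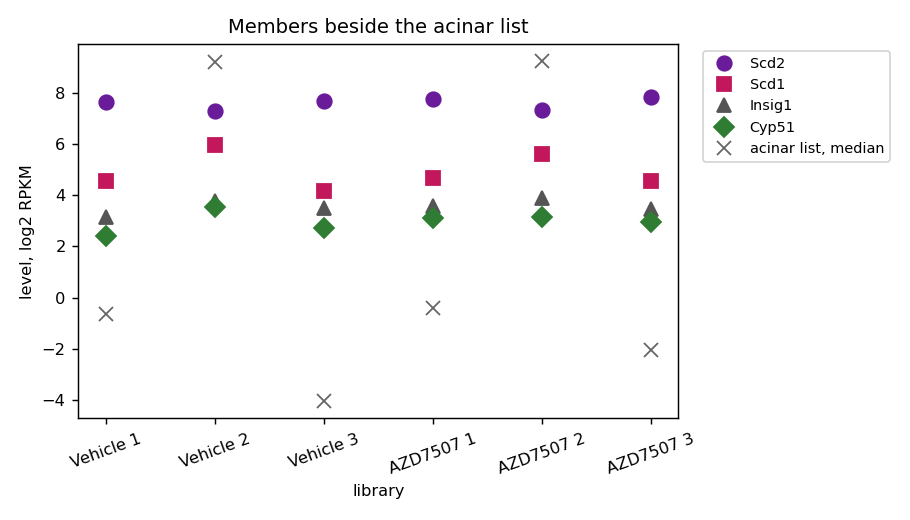
Levels of Scd2, Scd1, Insig1 and Cyp51 in log2 RPKM in each library, with crosses for the median of 8 pancreatic acinar genes. Scd1, at 5.96 and 5.62, is highest in Vehicle 2 and AZD7507 2, where the acinar median is also high, while Scd2 is lowest there at 7.30 and 7.34.

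Vehicle 2 was the highest library for 7 of 33 members and the lowest for 9, and AZD7507 2 was the highest for 2 and the lowest for 6. For 4 members (Srebf1, Insig1, Cyp51 and Scd1) both together were the 2 highest libraries, and for 4 (Srebf2, Hmgcs1, Scd2 and Fads1) the 2 lowest, which is 12.1% of the 33 each. Over all genes the shares were 13.1% and 16.3%. Vehicle 2 also had the lowest median of the epithelial markers, and whether acinar tissue, tumour content or another property of these libraries bears on Scd1 was not tested.

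The sterol and fatty acid branches were compared by their median levels in each library. The sterol median was 1.44, 1.95 and 1.73 in the vehicle libraries and 2.30, 1.70 and 2.01 in the AZD7507 libraries, and the groups overlapped. The fatty acid median was 4.34, 4.21 and 4.24 with vehicle and 4.49, 4.45 and 4.39 with AZD7507, without overlap, although the spans were narrow. The branch mean of the fatty acid genes, at 3.88 ± 0.07 and 3.88 ± 0.08, differed by only -0.0013, so mean and median disagreed in sign. The sterol mean differed by 0.14, from 1.60 ± 0.15 to 1.74 ± 0.15. The sterol minus fatty acid gap was -2.56 ± 0.33 with vehicle and -2.44 ± 0.28 with AZD7507, and the change of 0.12 was smaller than either SD. This gap difference turned to -0.05 without Vehicle 1 and -0.0017 without AZD7507 1, and rose to 0.43 without both acinar-rich libraries.

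**Figure D5:**
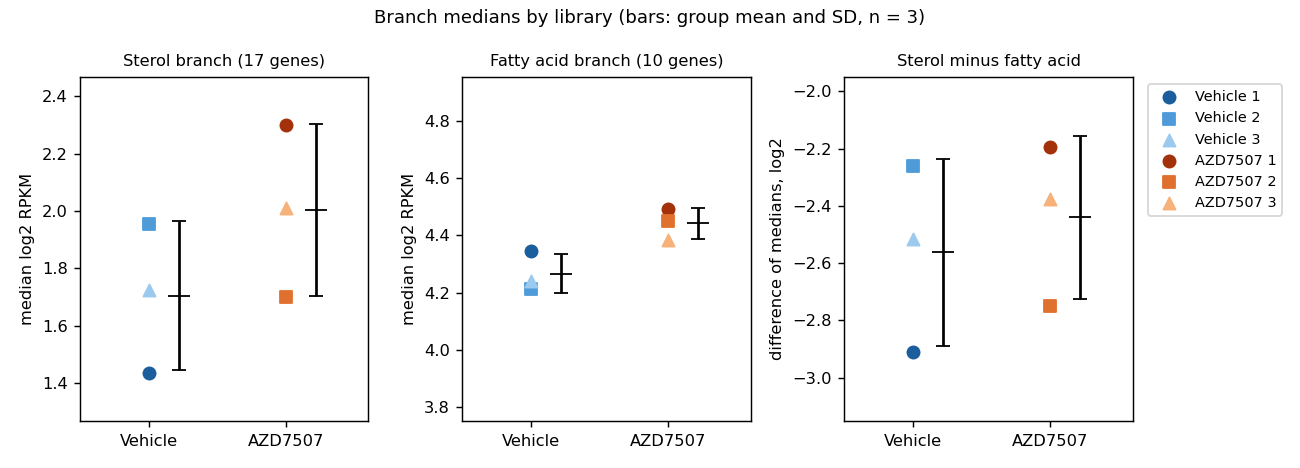
Median log2 RPKM of the 17 sterol genes and of the 10 fatty acid genes, and the sterol minus fatty acid difference, in each library, with group mean and SD (n = 3) as bars. Each vertical axis spans the same width. The sterol medians overlap between groups, and the fatty acid medians lie at 4.21 to 4.34 with vehicle and 4.39 to 4.49 with AZD7507.

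Other genes of the pathway did not pass either, with 0 of 47 called over all genes and a median difference of 0.05. Of all genes, 0.355% were called. At an unadjusted p under 0.05, 1 was higher and 2 were lower, against 3.31% and 5.49% of all genes. Of the remaining sterol synthesis genes, Lbr, a sterol reductase of the nuclear envelope, differed by -0.06 (SE 0.15). In the isoprenoid list Coq2, of coenzyme Q synthesis, differed by -0.25, Fntb, a farnesyltransferase subunit gene, by 0.15 and Dhdds, of dolichol synthesis, by 0.11. Among genes of SREBP processing and turnover Erlin1 differed by 0.28, the ubiquitin ligase gene Rnf139 by 0.07 and the protease gene Mbtps1, which cleaves SREBPs, by -0.07. In the list of other fatty acid and triglyceride genes 12 of 14 were above zero with a median of 0.15. Hsd17b12, a reductase of fatty acid elongation, differed by 0.27 (SE 0.11) without overlap, Me1, a source of NADPH, by 0.34 and Mlx, the partner of the carbohydrate response factors, by 0.22. Groups separate and higher with AZD7507 made up 1 of 14 genes of this list and 7.34% of all genes.

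Genes of sterol uptake, storage and export stood lower, with 9 of 13 below zero and a median difference of -0.20, but none passed over all genes. The export pump gene Abca1 was at 5.44, 5.99 and 5.17 with vehicle and 4.54, 4.65 and 3.98 with AZD7507. All AZD7507 tumours were below all vehicle tumours, and the difference was -1.14 (SE 0.25, 95% interval -1.73 to -0.55), or 2.20-fold lower, with an adjusted p of 0.172 from limma. Abcg1, a second export pump gene, was at 1.83, 1.80 and 1.50 with vehicle and 1.16, 1.10 and 1.02 with AZD7507. It too showed no overlap, with a difference of -0.62 (SE 0.15, limma adjusted p 0.237). Mylip, whose product degrades the LDL receptor, differed by -0.56 (SE 0.27), with overlap. Groups without overlap and lower with AZD7507 made up 3 of 13 genes of this list (Abca1, Abcg1 and Nr1h2) and 8.02% of all genes. Of the genes of the oxysterol receptors LXR, which were named here after their values were seen, Nr1h2 differed by -0.20 (limma adjusted p 0.641) and Nr1h3 by -0.12, with overlap. Macrophage markers moved with Abca1 and Abcg1, as 12 of 12 were lower, and their part was not tested. In bulk RNA, fewer cells of a type and less RNA per cell cannot be told apart.

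Markers of other cells that make or store lipid did not pass. The 6 measured adipocyte markers summed to between 53.2 and 78.5 RPKM with vehicle and between 71.0 and 108 with AZD7507. Lpl, a lipase gene that macrophages also express, was by far the most abundant of them, between 5.43 and 6.61. The sum therefore mainly follows Lpl and is no measure of fat cells. Lpl differed by 0.49 (SE 0.22), while Fabp4, between 1.87 and 3.33, differed by -0.36. Plin1, which coats the lipid droplet of fat cells, was between -5.11 and -1.47. Of 7 steroidogenic markers 3 were measured, and Star, which brings cholesterol into mitochondria, was at 2.15, 0.82 and 1.98 with vehicle and 2.33, 1.29 and 3.11 with AZD7507. Its lowest values in each group were again in the acinar-rich libraries. Fdx1, an electron donor of steroid synthesis, differed by 0.25. Fibroblast markers summed to between 457 and 606 RPKM and between 483 and 513, with Col1a1 differing by -0.16 and Col1a2 by -0.10.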

How the data were processed

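Libraries from the total RNA of 6 tumours, 3 per group, were made with a Ribo-Zero kit, per the labels' protocols. The authors deposited 1 table of log2 RPKM values normalized with cqn, as the table's name says, and checked here to have equal upper quartiles in all 6 libraries, so a shift of all genes together is invisible. BWA 0.7.15-r1140, HTSeq and the builds mm10 and GRCm38 are named in the submitters' processing notes. The annotation release, strand setting and low-count filter are not given in the sources used here. Depth is unknown, so it could not inform precision. The SEs pool the spread within both groups, and limma draws each gene's variance toward a trend fitted over all genes. They are therefore not a gene's own scatter alone.

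Symbols were matched for 16306 of 16344 identifiers, with coordinates from GENCODE M21. No pseudocount or filter was applied before testing with limma 3.58.1 in R 4.3.3 (trended, robust prior), Benjamini-Hochberg over all genes, adjusted p threshold 0.05, 2-sided. The fit was also run on simulated data with independent noise and planted changes larger than any member's difference. That run does not speak to variation shared between libraries or to small changes. Branch values are descriptions without a test. Promoters came from RefSeq (GRCm38.p6). Members, lists and alternatives were chosen with earlier results of these data known. All measured members are named, as are the 3 genes with the smallest unadjusted p of each other pathway list (some of which are not reported here) and, for marker lists, Csf1r and up to 2 abundant genes. Ctsb, Nr1h2, Nr1h3 and the markers Pax8, Plin1 and the missing adipocyte genes were named after their values were seen. Groups follow the treatment label, and replicate numbers follow record order. Alternatives were array weights, a constant prior, median centring, quantile normalization, adding 1 or 0.1 to the RPKM, keeping genes with a mean log2 RPKM of at least 0, omitting each library and omitting Vehicle 2 with AZD7507 2.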

Additional observations from a re-analysis of the deposited data

How the results depend on the processing

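No member or other named pathway gene passed the adjusted threshold under any of the 14 alternatives run. The number of genes called over the whole table, 3 higher and 55 lower, changed with the libraries and weights. A constant variance prior left 1 higher, array weights gave 14 higher and 143 lower, and leaving out both acinar-rich libraries gave 1 higher and 13 lower. Without 1 library there were 0 higher genes each time and between 0 and 14 lower, and limma's unadjusted p was under 0.05 for between 257 and 1082 higher genes and between 606 and 1359 lower ones. The median of the gene differences kept its sign in both branches under every alternative. It lay between 0.13 and 0.38 for the sterol branch and between 0.0056 and 0.077 for the fatty acid branch. A constant prior leaves every difference as it was, so it could not change this sign. The libraries already had nearly equal quantiles, so median centring and quantile normalization could hardly change it either. The AZD7507 minus vehicle change of the sterol minus fatty acid gap ranged from -0.05 to 0.28 without 1 library.

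Several differences changed sign, not only those nearest zero, and the cause was not tested. With array weights Lss was at 0.0044, Ebp at 0.10, Acly at 0.017 and Fads1 at -0.035. Without both acinar-rich libraries Scap was at -0.047, Mvk at 0.062, Lss at 0.066, Ebp at 0.10, Acly at 0.051, Fads1 at -0.011 and Lbr at 0.0010. Leaving out 1 library at a time gave ranges of -0.0042 to 0.25 for Insig2, -0.063 to 0.28 for Hmgcs1, -0.056 to 0.54 for Mvd, -0.072 to 0.037 for Lss, -0.065 to 0.50 for Cyp51 and -0.29 to 0.0027 for Tm7sf2. They were -0.081 to 0.086 for Ebp, -0.066 to 0.029 for Acly, -0.31 to 0.016 for Fasn, -0.31 to 0.59 for Scd1, -0.018 to 0.25 for Scd2 and -0.10 to 0.14 for Fads1. Lbr ranged from -0.16 to 0.077 and Mbtps1 from -0.13 to 0.010. No paired analysis was possible because the replicate numbers only follow the order of the records and pair no tumours.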
